A study of Mus musculus with 8 samples.

Results

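The G1 cyclins, their kinases and the RB proteins form the core switch by which a cell commits to copying its DNA. In cultures of neural stem and progenitor cells labelled Kat7 intact or Kat7 deleted, 10 genes of this switch were followed. They were the D cyclin genes Ccnd1, Ccnd2 and Ccnd3, the D cyclin kinase genes Cdk4 and Cdk6, the E cyclin genes Ccne1 and Ccne2 with their kinase gene Cdk2, and the RB family genes Rb1 and Rbl1. The members were chosen by symbol, each matched to its Entrez identifier, and made up 10 of 27179 identifiers in the count table. All 10 passed the filter on low counts that left 13498 genes to test. The protein made from Kat7, HBO1, acetylates histones.

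RNA was sequenced from 8 neurosphere cultures, floating clusters of dividing neural precursors, each grown from 1 C57BL/6 fetus of E14.5 in a medium for proliferating stem cells. The 4 Kat7 deleted cultures had the genotype Kat7lox/loxNesCreT/+, and the 4 Kat7 intact cultures had Kat7+/+NesCreT/+, so that all 8 carried the NesCreT transgene and the intact ones had no floxed allele. The Cre recombinase of this transgene is driven by nestin sequences, so deletion depends on Cre activity in nestin-expressing cells. Each genotype came from 3 litters, none of them shared with the other genotype, and effects of litter and of genotype therefore cannot be told apart. Kat7 deleted replicates 3 and 4 were littermates, as were Kat7 intact replicates 1 and 2. Library totals ran from 10687817 to 22444359 counts.

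The deleted libraries were not alike in their Kat7 reads. Kat7 stood at 26.4, 0.367, 13.9 and 0.0870 CPM (a gene's reads scaled to a common library size, with TMM factors) in Kat7 deleted replicates 1 to 4, against 77.1 to 92.1 CPM in the 4 intact libraries. Deleted replicates 1 and 3 thus kept 31.4% and 16.5% of the intact mean and replicates 2 and 4 kept 0.437% and 0.104%. The mitochondrial genome took 29.9% and 34.4% of the counts in deleted replicates 1 and 4, and 17.1% to 23.5% in the other 6 libraries. The progenitor markers Nes, Sox2, Pax6, Vim, Fabp7, Hes5, Msi1 and Sox1 summed to 3633 to 5705 CPM in deleted and 5041 to 6110 CPM in intact libraries. Nes, Vim and Fabp7 had the highest levels, and the list did not move together. Sox1 was at 0.190, 48.7 and 1.98 CPM in deleted replicates 1 to 3, against 12.3 to 31.3 CPM in intact libraries. Msi1 was at 30.8 CPM in deleted replicate 1, against 13.5 to 15.8 CPM. Fabp7 was at 581 CPM in deleted replicate 2, against 1486 to 2059 CPM. Markers of other cells were uneven among the deleted libraries. A list of 6 mesenchymal markers summed to 611 CPM in deleted replicate 2 and 108 CPM in deleted replicate 4, with 2.09 and 7.47 CPM in deleted replicates 1 and 3 and 1.26 to 1.35 CPM in intact libraries. The sum was Col3a1 (333.5 CPM), Acta2 (191 CPM) and Dcn (84.1 CPM) in replicate 2, but Acta2 alone (106.5 CPM) in replicate 4, where each of the other 5 was at 0.696 CPM or less. A list of 6 astrocyte markers summed to 906 CPM in deleted replicate 1 and 133 to 242 CPM in deleted replicates 2 to 4, against 99.6 to 187 CPM in intact libraries. Slc1a2 (540.2 CPM), Gfap (147 CPM) and S100b (111 CPM, against 3.95 to 14.9 CPM in intact libraries) led it in replicate 1. Aqp4 was at 38.1 CPM there, against 0.916 to 1.91 CPM in intact libraries. Gja1 (38.2 CPM) and Aldh1l1 (31.6 CPM) lay within their intact ranges in that library. A list of 7 neuronal markers summed to 115 CPM in deleted replicate 2, 5.05 to 7.80 CPM in the other deleted libraries and 11.1 to 16.0 CPM in intact libraries. Dcx alone gave 100.6 CPM of it in replicate 2. Rbfox3 (8.17 CPM, against 0.0713 to 0.523 CPM in intact libraries) and Snap25 (4.96 against 0.0598 to 0.654 CPM) were also higher there. Tubb3 was at 1.38 CPM in that library against 4.70 to 6.04 CPM in intact libraries. Neurod1 was at 0.0918 against 2.64 to 6.10 CPM, and Syt1 at 0 against 1.61 to 3.56 CPM, so the list did not move together. Among markers of other cells, Aqp4 (of 6 astrocyte markers tested) and Acta2 (the 1 mesenchymal marker tested) were called higher, against 5.10% of all genes. Of 5 neuronal markers tested 1 was called lower, as was the 1 endothelial marker tested, against 2.80% of all genes. Of 3 markers of the oligodendrocyte lineage tested 0 were called, but they were uneven as well. In deleted replicate 2 Pdgfra was at 59.6 CPM, against 6.16 to 13.3 CPM in intact libraries. Cspg4 was at 19.1 CPM there, against 41.0 to 90.1 CPM in intact libraries. Of the microglial markers 0 passed the filter on low counts. The 4 endothelial and 5 microglial markers summed to at most 1.84 and 0.522 CPM in any library, and C1qa was at 0 in all. The part of these cells in the results on the G1 genes was not tested.

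Mitogens raise D cyclins, which bind CDK4 and CDK6, and these kinases begin to phosphorylate RB proteins. Phosphorylated RB proteins release E2F factors, which raise the E cyclins and the genes of DNA synthesis, and cyclin E with CDK2 completes the phosphorylation. In the developing mouse cortex cyclin D1 and cyclin D2 are both made by neural progenitors, where cyclin D2 has been linked to basal progenitors and to the basal process of radial glia, and the length of G1 changes as progenitors turn from renewal to making neurons.

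Stretches around a transcript start of 3 of these genes are shown because E2F factors bind upstream of several of them, and because Cdk6 fell in the deleted cultures. RefSeq windows of the assembly GRCm38.p6 (mm10 in its patched form), each 250 bases before to 50 bases after a transcript start, were matched to 6 of the 10 members (Ccnd3, Cdk4, Cdk6, Ccne1, Cdk2 and Rbl1). E2F-type words were searched on both strands as TTTCCCGC, TTTCGCGC, TTTGCCGC and TTTGGCGC, and a match stands in capitals below, written along the strand of the gene. Rbl1 is at chr2:157204485-157204784 on the minus strand, Cdk2 at chr10:128705002-128705301 on the minus strand, and Cdk6 at chr5:3343643-3343942 on the plus strand. The span of Cdk6 begins at 3341004, so its window lies inside the gene and does not cover the first base of that span.
Rbl1: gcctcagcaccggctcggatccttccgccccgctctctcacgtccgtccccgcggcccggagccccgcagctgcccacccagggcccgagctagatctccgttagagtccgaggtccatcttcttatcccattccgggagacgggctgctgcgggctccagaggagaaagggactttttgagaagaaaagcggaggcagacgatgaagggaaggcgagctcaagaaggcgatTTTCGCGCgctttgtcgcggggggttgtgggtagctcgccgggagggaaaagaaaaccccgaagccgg
Cdk2: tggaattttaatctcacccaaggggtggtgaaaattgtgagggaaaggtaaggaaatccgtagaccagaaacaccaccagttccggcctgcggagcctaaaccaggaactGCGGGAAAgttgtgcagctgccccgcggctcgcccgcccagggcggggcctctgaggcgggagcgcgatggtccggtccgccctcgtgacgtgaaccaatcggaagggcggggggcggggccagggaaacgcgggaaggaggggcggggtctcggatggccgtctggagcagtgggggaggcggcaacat
Cdk6: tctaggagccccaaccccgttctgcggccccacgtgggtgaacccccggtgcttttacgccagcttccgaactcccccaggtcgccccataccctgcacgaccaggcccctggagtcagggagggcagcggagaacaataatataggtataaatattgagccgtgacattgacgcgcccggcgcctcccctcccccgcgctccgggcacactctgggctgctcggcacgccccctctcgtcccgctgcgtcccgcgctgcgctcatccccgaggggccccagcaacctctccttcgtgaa
The Rbl1 window held TTTCGCGC starting 18 bases before the transcript start, and the Cdk2 window held TTTCCCGC on the opposite strand, its run starting 140 bases before. No such word was in the windows of Cdk6, Cdk4 and Ccne1 or in either window of Ccnd3. Of 32851 windows in the RefSeq table, 2.27% held any of the 4 words. The CHR word TTTGAA, which MuvB complexes bind in late cell cycle genes, was in none of the 7 member windows and in 17.9% of all windows. The 7 windows had 59.3% to 76.0% G and C and 15 to 41 CG steps, against a median of 52.7% and 7 steps over all windows. A match or its absence describes these letters only.

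Per length of transcript, the intact cultures had a steep order of levels among the 10 genes. On the scale of RPKM (CPM per kilobase of the deposited gene length), Ccnd1 averaged 524 ± 241 in Kat7 deleted and 862 ± 129 in Kat7 intact cultures (SD, n = 4 each). Cdk4 averaged 267 ± 74.9 RPKM in deleted and 328 ± 14.3 in intact cultures, and Ccnd2 averaged 49.9 ± 11.7 in deleted and 104 ± 11.7 in intact cultures. In intact cultures Cdk2, Ccne1, Ccne2, Rbl1, Rb1 and Ccnd3 followed, with means of 32.8, 21.3, 17.0, 13.9, 10.99 and 9.92 RPKM, and Cdk6 was last at 1.66 RPKM. Every gene in this intact order was separated from the next, with no overlap between the ranges over 4 libraries. In deleted cultures Ccnd1, Cdk4 and Ccnd2 kept ranks 1 to 3 and Cdk6 rank 10, but the ranges of Ccnd2 and Cdk2 overlapped, as did those of each neighbouring pair from Ccne1 through Rb1, Ccne2 and Rbl1 to Ccnd3. The deposited lengths count only part of some genes: 2470 bases for Cdk6 against 13989 exonic bases over all its transcripts in GENCODE vM21, and 2261 of 8775 for Ccnd3, so these levels refer to the counted part. Exons of 8 of the 10 genes, all but Ccne1 and Rbl1, overlap in part with a gene on the opposite strand, and reads of those stretches cannot be told apart without a stated strand setting.

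Ccnd2 and Cdk6 fell in the Kat7 deleted cultures, and the other 8 genes did not pass the test. By edgeR's quasi-likelihood test with Benjamini-Hochberg adjustment over all genes, 2 of 10 members were called at an adjusted p under 0.05, against 7.90% of all genes tested. Both were lower, against 2.80% of all genes, and 0 were called higher, against 5.10%. Kat7 itself was not called by this test (log2 fold change -3.02, edgeR adjusted p = 0.128). A gene without a call is therefore not shown to be unchanged. An unadjusted p under 0.05 was reached by 5 members, all lower, against 26.2% of all genes in either direction. DESeq2 called 2 members lower and 0 higher, and 14.4% of all genes. The fitted fold change was below 0 for 8 of 10 members and for 45.0% of all genes. The median log2 fold change was -0.39 over the members and 0.05 over all genes. All 4 deleted libraries lay below all 4 intact ones for 3 members, Ccnd2, Cdk6 and Rbl1, a pattern found in 9.21% of all genes, while 19.9% did not overlap in either direction. In whole cultures, fewer cells that express a gene and less of its RNA per cell cannot be told apart.

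**Figure D1:**
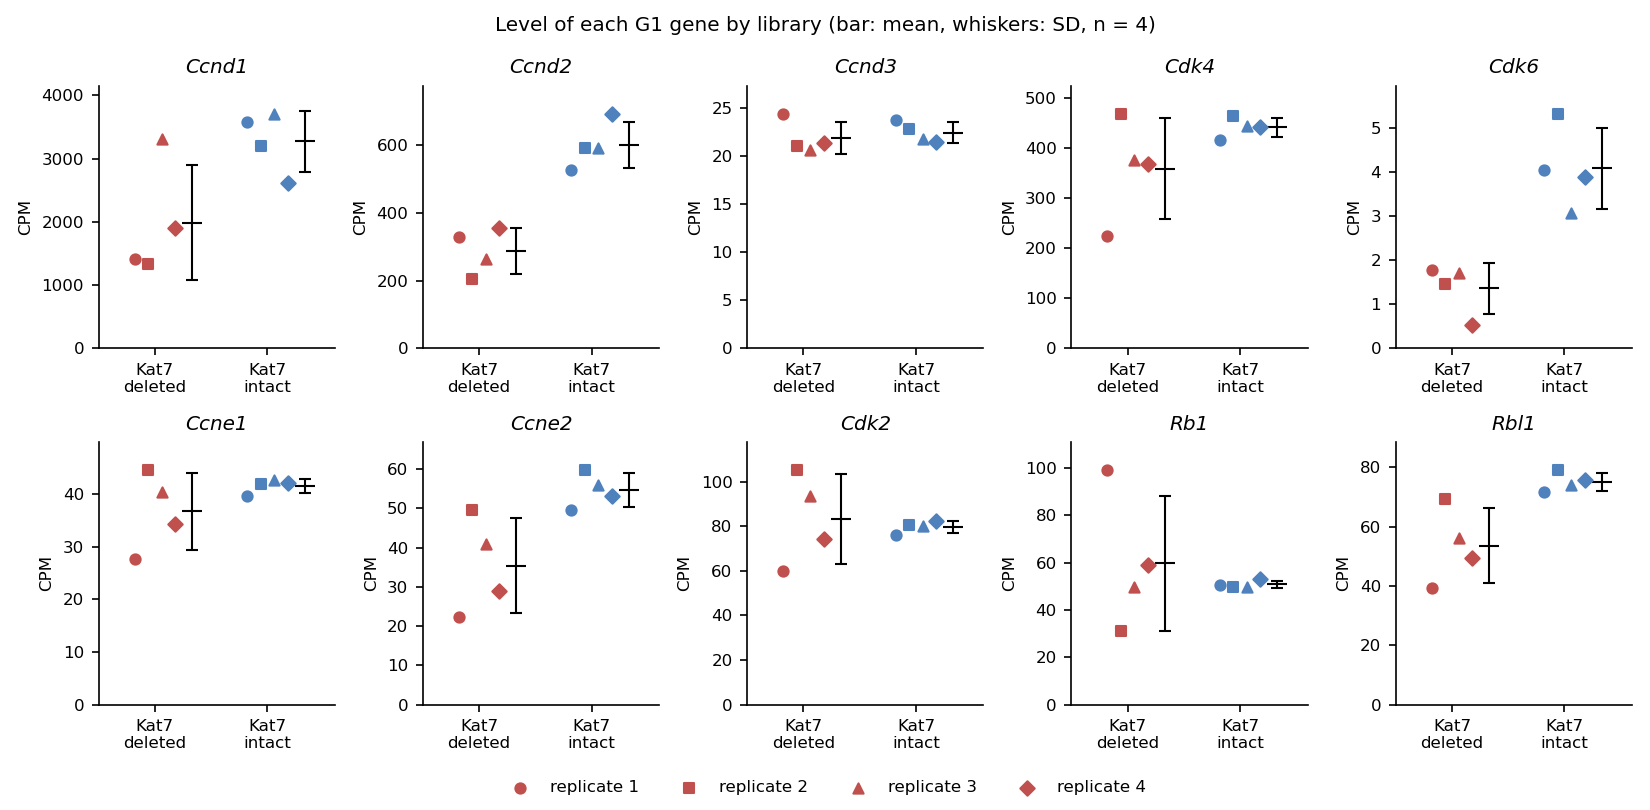
Level of each of the 10 genes in CPM (linear axes from 0) in the 4 Kat7 deleted (left, red) and 4 Kat7 intact (right, blue) libraries; marker shapes give the replicate, and bars with whiskers the mean and SD. Ccnd2, Cdk6 and Rbl1 have all deleted libraries below all intact ones, and Rb1 shows a wide spread in deleted libraries beside a narrow one in intact libraries.

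Ccnd2 encodes cyclin D2 (Entrez 12444, chromosome 6, 127125162 to 127152188 in GRCm38). It stood at 327, 204, 265 and 355 CPM in Kat7 deleted replicates 1 to 4, against 528, 593, 592 and 692 CPM in Kat7 intact replicates 1 to 4. Every deleted library was below the lowest intact one, with replicate 2 lowest at 33.8% of the intact mean and replicate 4 highest at 59.0%. The mean was 288 ± 67.6 CPM in deleted and 601 ± 67.7 CPM in intact cultures (SD, n = 4 each), a log2 fold change of -1.06 ± 0.19 (approximate SE) with an edgeR adjusted p of 0.0179. The fall was as large with the 2 deleted libraries of highest mitochondrial share left out (-1.38, adjusted p = 0.00970) and with the 2 that keep most Kat7 reads left out (-1.11, adjusted p = 0.0244). The call ended without intact replicate 2, 3 or 4 (adjusted p of 0.0659, 0.0569 and 0.0681) and with littermates summed (0.0655). It held in 21 of 25 settings, in all of which the fold change was below 0.

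Ccnd1, the gene of cyclin D1 (Entrez 12443, chromosome 7, 144929931 to 144939831), was the most abundant of the 10 and was divided within the deleted genotype. It stood at 1409, 1335, 3307 and 1899 CPM in Kat7 deleted replicates 1 to 4, against 3575, 3194, 3704 and 2616 CPM in Kat7 intact replicates 1 to 4. Deleted replicate 3 was at 101% of the intact mean while its littermate, replicate 4, was at 58.0%, and the other 2 deleted libraries were lower still at 43.1% and 40.8%. The log2 fold change was -0.72 ± 0.31 and missed the threshold (edgeR adjusted p = 0.179). Without deleted replicate 3 it was -1.08 with an adjusted p of 0.0377, and without the 2 libraries that keep most Kat7 reads -1.02 with 0.0296. These were the settings that passed, 2 of 25. It was smaller, at -0.52 (adjusted p = 0.384), without the 2 deleted libraries of highest mitochondrial share, and at -0.47 (0.355) without deleted replicates 2 and 4.

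Ccnd3, the gene of cyclin D3 (Entrez 12445, chromosome 17), was nearly level across all libraries. It stood at 24.3, 21.0, 20.6 and 21.4 CPM in Kat7 deleted replicates 1 to 4, against 23.7, 22.8, 21.8 and 21.4 CPM in Kat7 intact replicates 1 to 4. Its log2 fold change was -0.04 ± 0.11 (edgeR adjusted p = 0.862), the narrowest standard error of the 10. The fitted value was 0.0040 without deleted replicates 2 and 4.

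Taken per length, cyclin D RNA was nearly all Ccnd1 in either genotype. The sum of the 3 genes was 439, 396, 926 and 571 RPKM in Kat7 deleted replicates 1 to 4, against 1044, 954, 1088 and 819 RPKM in Kat7 intact replicates 1 to 4. Deleted replicate 3 lay within the intact range and the other 3 below it. Ccnd1 made up 88.8% ± 3.95 of the sum in deleted and 88.1% ± 2.73 in intact cultures, and Ccnd2 made up 9.39% ± 3.38 in deleted and 10.9% ± 2.63 in intact cultures (SD, n = 4 each). The share of Ccnd2 was 12.9%, 8.90%, 4.96% and 10.8% in deleted replicates 1 to 4, against 8.77%, 10.8%, 9.43% and 14.7% in intact replicates 1 to 4, so the genotypes overlapped and deleted replicate 3 alone lay outside the intact range on the low side. Within that library Ccnd1 outnumbered Ccnd2 19.0-fold, against 5.75-fold to 10.3-fold in intact libraries. Ccnd3 took 2.46%, 2.35%, 0.986% and 1.66% in deleted and 0.885% to 1.16% in intact libraries. These shares describe the libraries and were not tested.

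**Figure D2:**
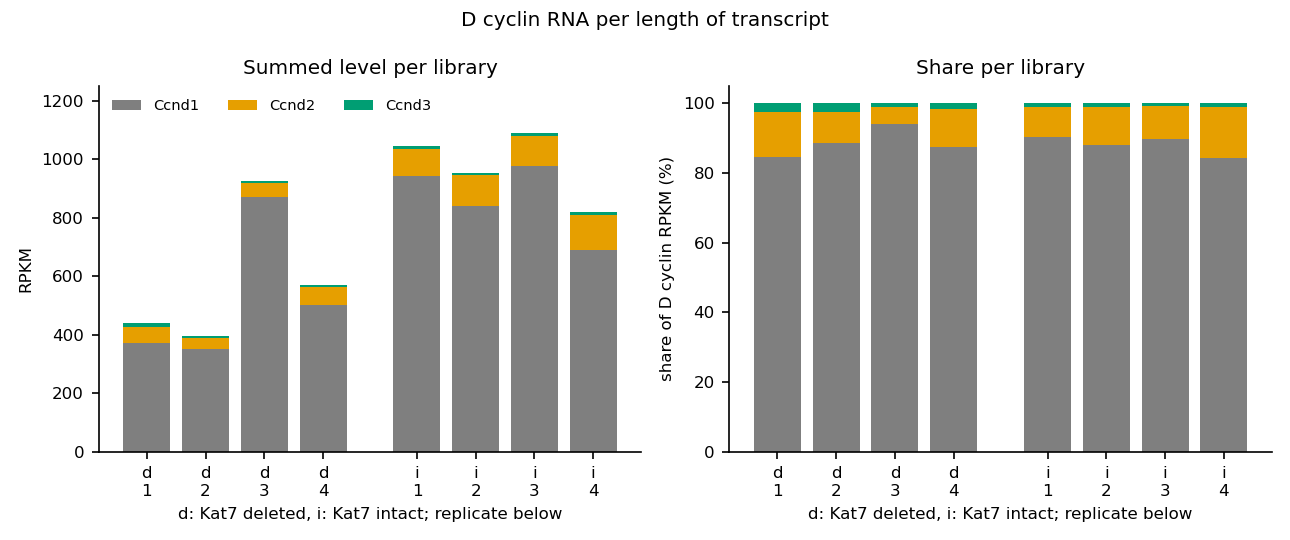
Summed RPKM of Ccnd1 (grey), Ccnd2 (orange) and Ccnd3 (green) in each library (left panel) and the share of each gene in that sum in percent (right panel), with Kat7 deleted libraries left of intact ones. The sum is 396 to 926 RPKM in deleted and 819 to 1088 RPKM in intact libraries, and Ccnd1 makes up most of every bar.

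Cdk6, one of the kinases that D cyclins activate (Entrez 12571, chromosome 5, 3341004 to 3531008), was scarce and fell. It had 28, 16, 31 and 6 reads in Kat7 deleted replicates 1 to 4, against 57, 89, 63 and 89 reads in Kat7 intact replicates 1 to 4. Exact Poisson intervals (95%, counting error only) on the deleted counts were 18.6 to 40.5, 9.15 to 26.0, 21.1 to 44.0 and 2.20 to 13.1 reads. As levels these were 1.78, 1.47, 1.702 and 0.522 CPM in the deleted libraries, against 4.06, 5.32, 3.08 and 3.88 CPM in the intact ones, so the genotypes did not overlap. The log2 fold change was -1.56 ± 0.39, with 1.37 ± 0.578 CPM in deleted and 4.09 ± 0.927 CPM in intact cultures and an edgeR adjusted p of 0.0455. The call lay close to the threshold. It ended without any 1 intact library (adjusted p of 0.114, 0.141, 0.0916 and 0.109 for replicates 1 to 4), without deleted replicate 3 (0.0697), with littermates summed (0.0964), with litter as a random block (0.117) and with replicate number as block (0.0885), and held in 17 of 25 settings. In all 25 the fold change was below 0, from -2.04 to -1.23.

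Cdk4, the other D cyclin kinase gene (Entrez 12567, chromosome 10), far outweighed Cdk6 per length in every library. It stood at 224, 468, 376 and 368 CPM in Kat7 deleted replicates 1 to 4, against 416, 463, 444 and 442 CPM in Kat7 intact replicates 1 to 4. Deleted replicate 1 was at 50.7% of the intact mean, replicates 3 and 4 at 85.2% and 83.2%, and replicate 2 lay just above the highest intact library. The log2 fold change of -0.30 ± 0.21 did not pass the test (edgeR adjusted p = 0.396). It moved to -0.13 without deleted replicate 1 and -0.45 without deleted replicate 2, and was -0.087 without the 2 libraries of highest mitochondrial share, -0.082 without the 2 with most Kat7 reads and -0.56 without deleted replicates 2 and 4. The ratio of Cdk4 to Cdk6 in RPKM was 231, 584, 406 and 1292 in deleted replicates 1 to 4, against 188, 160, 264 and 209 in intact replicates 1 to 4, and deleted replicate 1 lay inside the intact range.

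Of the E cyclins, which bind CDK2 late in G1, Ccne2 was the more uneven. Ccne2 (Entrez 12448, chromosome 4) stood at 22.3, 49.5, 40.8 and 29.0 CPM in Kat7 deleted replicates 1 to 4, against 49.5, 59.7, 56.0 and 53.1 CPM in Kat7 intact replicates 1 to 4. Deleted replicate 2 touched the lowest intact library and the other 3 were below it. Its log2 fold change was -0.63 ± 0.23 (edgeR adjusted p = 0.129), and without deleted replicate 2 it was -0.83 with an adjusted p of 0.0309. It was smaller without deleted replicate 1 (-0.46, 0.132) and less still without the 2 libraries of highest mitochondrial share, replicates 1 and 4 (-0.30, adjusted p = 0.192). Ccne1 (Entrez 12447, chromosome 7) stood at 27.6, 44.5, 40.5 and 34.3 CPM in deleted replicates 1 to 4, against 39.6, 41.9, 42.6 and 42.1 CPM in intact replicates 1 to 4. Its genotypes overlapped, the log2 fold change was -0.18 ± 0.15 (edgeR adjusted p = 0.489), and the value was -0.066 without deleted replicate 1, -0.29 without deleted replicate 2 and 0.0086 without deleted replicates 1 and 4. Ccne2 made up 32.98%, 40.3%, 38.0% and 33.9% of E cyclin RPKM in the deleted libraries, against 43.2% to 46.4% in the intact ones, and these ranges were apart.

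Cdk2 (Entrez 12566, chromosome 10), whose kinase serves both E and A cyclins, lay on either side of its intact range in the deleted libraries. It stood at 60.1, 105, 93.6 and 74.3 CPM in Kat7 deleted replicates 1 to 4, against 76.1, 80.4, 80.2 and 82.3 CPM in Kat7 intact replicates 1 to 4. Deleted replicates 2 and 3 lay above all intact libraries and replicates 1 and 4 below them. Its log2 fold change was 0.06 ± 0.17 (edgeR adjusted p = 0.848), and -0.053 with scaling by total counts alone.

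The RB genes encode the pocket proteins that hold E2F factors in check. Rbl1, the gene of p107 and itself an E2F target with the TTTCGCGC word shown above, stood at 39.4, 69.5, 56.1 and 49.4 CPM in Kat7 deleted replicates 1 to 4, against 71.8, 79.0, 74.1 and 75.6 CPM in Kat7 intact replicates 1 to 4 (Entrez 19650, chromosome 2). The genotypes did not overlap, although deleted replicate 2 was at 92.5% of the intact mean. The log2 fold change of -0.49 ± 0.17 missed the threshold (edgeR adjusted p = 0.108), and without deleted replicate 2 it was -0.64 with an adjusted p of 0.0218. It was smaller without deleted replicate 1 (-0.37, 0.106) and without the 2 libraries of highest mitochondrial share (-0.28, adjusted p = 0.180).

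Rb1 (Entrez 19645, chromosome 14), the gene of RB itself, stood at 99.1, 31.2, 49.9 and 59.0 CPM in Kat7 deleted replicates 1 to 4, against 50.6, 49.8, 49.9 and 53.0 CPM in Kat7 intact replicates 1 to 4. Deleted libraries lay on both sides of a narrow intact range, from 61.4% to 195% of its mean. The coefficient of variation was 47.9% in deleted and 2.91% in intact cultures, and the log2 fold change was 0.24 ± 0.30 (edgeR adjusted p = 0.651). Its sign turned to -0.12 without deleted replicate 1. Rb1 stood to Rbl1, in RPKM, at 2.95, 0.526, 1.04 and 1.40 in deleted replicates 1 to 4, against 0.738 to 0.826 in intact libraries.

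**Figure D3:**
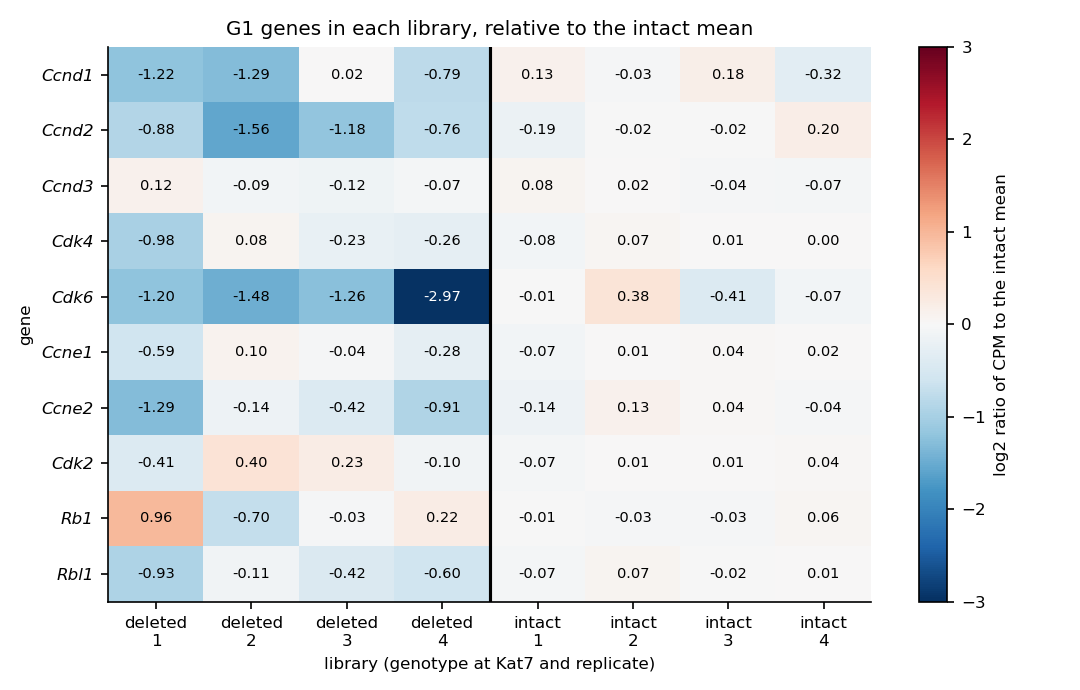
Log2 ratio of each library's CPM to the mean of the 4 intact libraries, for the 10 genes (rows) in the Kat7 deleted (left of the line) and intact libraries (columns); blue is lower and red higher. Ccnd2, Cdk6, Ccne2 and Rbl1 are below the intact mean in all 4 deleted libraries, while Rb1 is at 0.96 in deleted replicate 1 and -0.70 in deleted replicate 2.

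The deleted libraries differed in which of the 10 genes were low. The coefficient of variation was larger in the deleted than in the intact genotype for 10 of 10 members. The SD of CPM, a different measure, was larger in deleted cultures for 85.3% of all genes tested. Among the members this SD was smaller in deleted cultures for Ccnd2 (67.63 against 67.67 CPM) and Cdk6 (0.578 against 0.927 CPM). It was larger there for the others. Deleted replicate 1, which kept 31.4% of Kat7 and had a high mitochondrial share, was the lowest deleted library for 5 members (Cdk4, Ccne1, Ccne2, Cdk2 and Rbl1) and the highest for Ccnd3, Cdk6 and Rb1. Deleted replicate 2, nearly without Kat7 reads, was the highest deleted library for the same 5 members and the lowest for Ccnd1, Ccnd2 and Rb1. The median log2 ratio of the 10 genes to the intact mean was -0.90, -0.13, -0.17 and -0.44 in deleted replicates 1 to 4, so their order did not follow the Kat7 reads. Whether the mitochondrial share, which was high in deleted replicates 1 and 4, has a part in this was not tested.

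Among other genes of the G1/S pathway, in 9 lists of 51 genes, calls were few, and the 2 called genes were Tfdp1 and Chek1. Of 50 tested, 2 were called in either direction, a smaller share than the 7.90% of all genes. Both were lower, against 2.80% of all genes, and 0 were higher, against 5.10%. Unadjusted p-values under 0.05 numbered 12 lower and 2 higher, against 1408 lower and 2131 higher among all 13498 genes. DESeq2 gave 5 lower and 1 higher, against 843 lower and 1208 higher among the same 13498. Their median log2 fold change was -0.26, against 0.05 over all genes. Mycn did not pass the filter on low counts.

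Inhibitors of the G1 kinases were not called. Of the 4 INK4 genes, which block CDK4 and CDK6, 0 passed edgeR's test. Cdkn2a alone was lower by DESeq2 or without adjustment, at 6.04 ± 2.49 CPM in deleted and 12.7 ± 1.79 CPM in intact cultures (edgeR adjusted p = 0.0812), and is named here after its values were seen. The most abundant, Cdkn2c, averaged 39.6 ± 8.20 CPM in Kat7 deleted and 47.0 ± 8.38 CPM in Kat7 intact cultures (SD, n = 4 each), with a log2 fold change of -0.25 ± 0.19 (edgeR adjusted p = 0.437). Of the 3 CIP/KIP genes 0 passed at any of these tests. Cdkn1a, the gene of p21 and the most abundant of them, stood at 170, 117, 318 and 215 CPM in deleted replicates 1 to 4, against 287, 337, 325 and 290.2 CPM in intact replicates 1 to 4. Like Ccnd1, it was within the intact range in deleted replicate 3 and below it in the other 3 deleted libraries. The log2 fold change was -0.60 ± 0.27 (edgeR adjusted p = 0.204). Rbl2, the remaining pocket protein gene, averaged 58.1 ± 10.3 CPM in deleted and 45.5 ± 4.14 CPM in intact cultures, with a log2 fold change of 0.35 ± 0.14 (edgeR adjusted p = 0.163).

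Among 10 E2F and DP genes, 1 was called lower, against 2.80% of all genes, and 0 higher, while 3 were lower and 0 higher without adjustment (p under 0.05, against 1408 lower of 13498 genes) and DESeq2 gave 2 lower and 0 higher (843 lower of 13498). The called gene was Tfdp1, the DNA-binding partner DP1 of E2F factors. It stood at 64.3, 84.8, 92.6 and 68.96 CPM in Kat7 deleted replicates 1 to 4, against 113, 124, 133 and 128 CPM in Kat7 intact replicates 1 to 4. Without overlap between the genotypes, the fold change on the log2 scale was -0.68 ± 0.14 (edgeR adjusted p = 0.0273). The call held in 16 of 25 settings and ended without deleted replicate 4 or any 1 intact library (adjusted p of 0.0544 to 0.0912), with litter as a random block (0.0604), littermates summed (0.0872), the replicate block (0.0564) and total counts alone (0.0529). Of 4234 different 100-base words in its GENCODE vM21 transcripts, 320 also occur in a processed pseudogene, so its counts are uncertain to that extent.

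Of 13 E2F target genes outside the 10 members, 1 was called lower, against 2.80% of all genes, and 0 higher, and DESeq2 gave 1 lower, against 843 of 13498 genes. All 13 had a fitted fold change below 0, from -0.77 to -0.19 with a median of -0.42, against 45.0% of all genes below 0, and 5 were lower and 0 higher without adjustment (p under 0.05), against 1408 lower of 13498 genes. Chek1, the checkpoint kinase of DNA replication, stood at 23.5, 37.9, 32.8 and 28.3 CPM in Kat7 deleted replicates 1 to 4, against 45.8, 55.8, 52.9 and 53.7 CPM in Kat7 intact replicates 1 to 4. Its genotypes did not overlap (log2 fold change -0.77 ± 0.16, edgeR adjusted p = 0.0271), and the call held in 18 of 25 settings, ending without deleted replicate 4 or any 1 intact library (adjusted p of 0.0562 to 0.0988), with litter as a random block (0.0505) and with littermates summed (0.109). The list's median log2 ratio to the intact mean was -0.9967, -0.04, -0.18 and -0.71 in deleted replicates 1 to 4, the same order of libraries as for the 10 members. The mitochondrial share was highest in deleted replicate 4 (34.4%) and next in deleted replicate 1 (29.9%), whereas the list was lowest in replicate 1. Whether that share has a part in this order was not tested.

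The remaining lists held no call. For the counts below, 1408 of all 13498 genes were lower and 2131 higher without adjustment (p under 0.05). DESeq2 gave 843 lower and 1208 higher among them. Of the 4 genes of CDK activation 0 were called, 1 was lower without adjustment and DESeq2 gave 0. Ccnh, the cyclin of the CDK-activating kinase, averaged 28.1 ± 6.95 CPM in Kat7 deleted and 38.6 ± 3.67 CPM in Kat7 intact cultures, a log2 fold change of -0.46 ± 0.18 (edgeR adjusted p = 0.143). Of 9 genes of cyclin and inhibitor turnover 0 were called, while 1 was higher and 1 lower without adjustment and DESeq2 gave 1 higher. Without adjustment Fbxo4 was higher, at 10.8 ± 1.53 CPM in deleted and 6.78 ± 0.757 CPM in intact cultures (edgeR adjusted p = 0.0558). Fbxo31 was lower, at 16.4 ± 4.51 CPM in deleted and 23.3 ± 1.08 CPM in intact cultures (edgeR adjusted p = 0.152). For both the genotypes did not overlap, and both are named here after their values were seen. Skp1, the adaptor of SCF ubiquitin ligases, averaged 278 ± 44.8 CPM in deleted and 308 ± 29.2 CPM in intact cultures (edgeR adjusted p = 0.550). Of 5 MuvB genes 0 were called, while 1 was lower both without adjustment and by DESeq2. That gene was Rbbp4, a histone chaperone shared by several complexes, at 265 ± 25.9 CPM in deleted and 361 ± 23.6 CPM in intact cultures with a log2 fold change of -0.45 ± 0.12 (edgeR adjusted p = 0.0606). Myc, a driver of D cyclin genes, averaged 51.8 ± 13.6 CPM in deleted and 61.9 ± 11.3 CPM in intact cultures (edgeR adjusted p = 0.489).

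**Figure D4:**
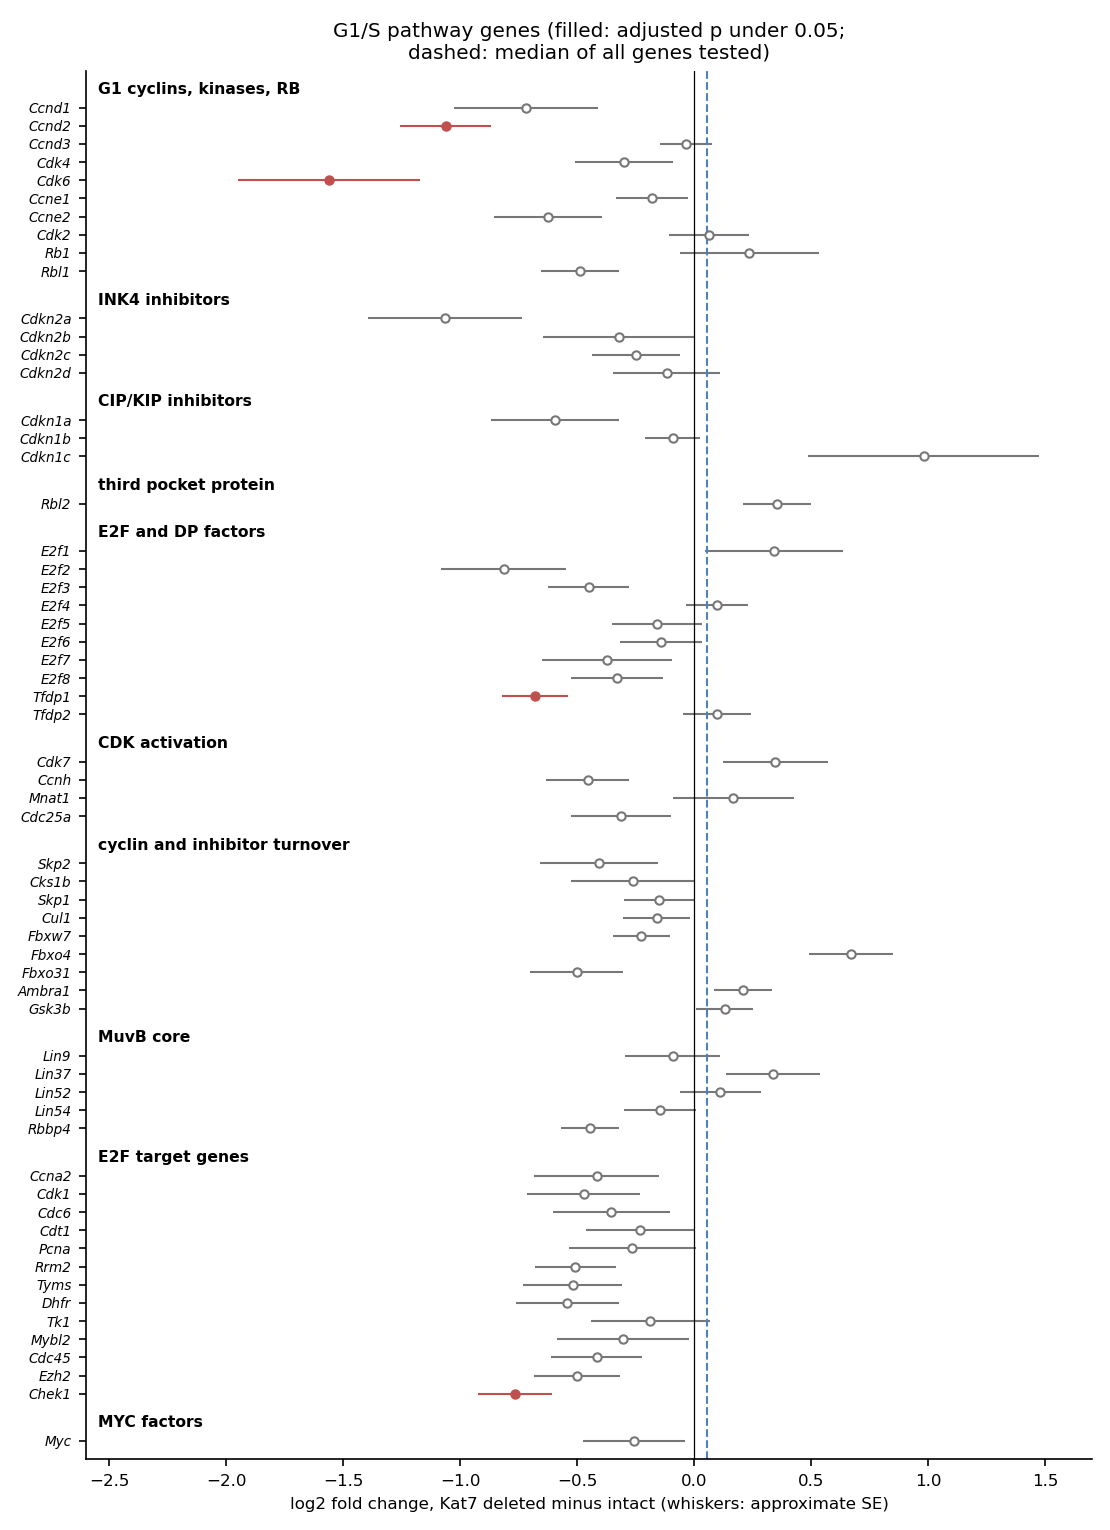
Log2 fold change, Kat7 deleted minus intact, with its approximate standard error for the 10 G1 genes (top) and 50 other tested genes of the G1/S pathway by list; filled red points passed an adjusted p under 0.05 and the dashed line is the median of all genes tested (0.05). Ccnd2, Cdk6, Tfdp1 and Chek1 are filled, and all 13 E2F target genes lie left of 0.

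Across the 25 settings, Ccnd1, Ccnd2, Cdk4, Cdk6, Ccne2 and Rbl1 had a fold change below 0 in every one. Passing the threshold was rarer: Ccnd2 in 21, Cdk6 in 17, Rbl1 in 3, Ccnd1 and Ccne2 in 2 each, and the other 5 genes in 0.

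**Figure D5:**
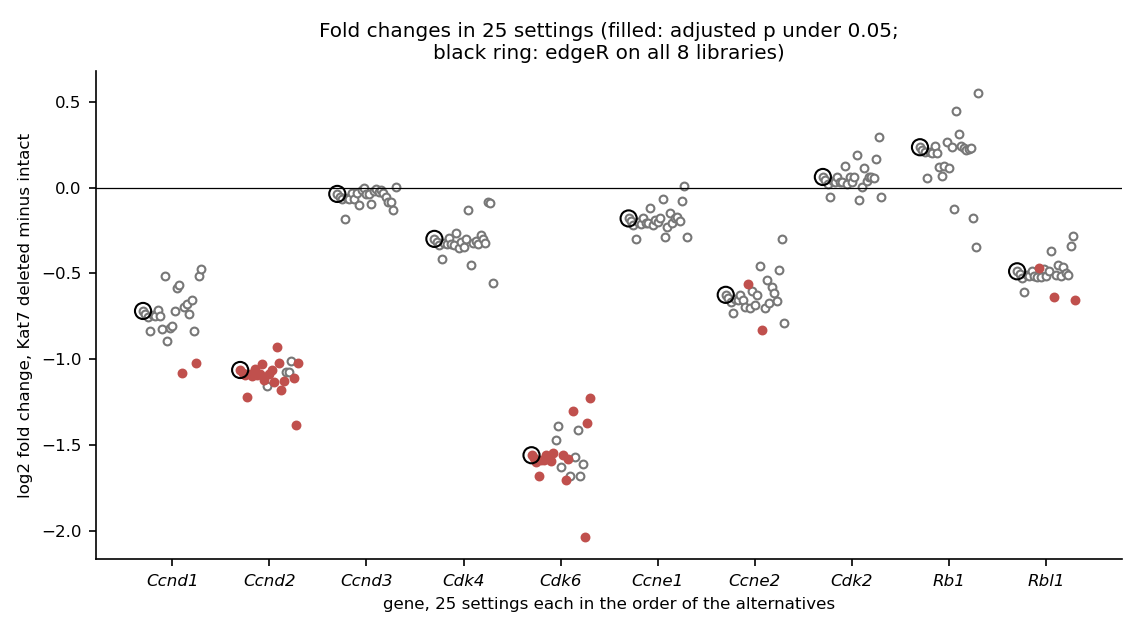
Log2 fold change, Kat7 deleted minus intact, of each of the 10 genes in 25 settings of the analysis; filled red points passed an adjusted p under 0.05, open grey points did not, and a black ring marks edgeR on all 8 libraries. Ccnd2 lies between -1.38 and -0.93 and Cdk6 between -2.04 and -1.23, while Cdk2 and Rb1 lie on both sides of 0.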

How the data were processed

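RNA-seq libraries of 8 neurosphere cultures were compared, 4 Kat7 deleted and 4 Kat7 intact, grouped by the labels. The authors' deposited values are unscaled read counts for each Entrez gene with no normalization, per the file headers and values, and the 8 single-library files were identical to the table of the whole series. CASAVA 1.8.2, featureCounts and the build mm10 were used, per the submitters' processing notes, on 100 bp single-end reads of polyadenylated RNA, per the labels. The aligner and the strand setting are not given in the sources used here. Gene lengths were deposited beside the counts.

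Genes were filtered with filterByExpr (minimum count 10), scaled by TMM and tested with edgeR 4.0.16 in R 4.3.3 (robust quasi-likelihood F test, no covariate). Calls took an adjusted p (Benjamini-Hochberg) under 0.05. CPM use TMM-scaled library sizes and RPKM divide them by the deposited length. The approximate SE divides the size of the log2 fold change by the root of F. Alternatives used DESeq2 1.42.0 and limma 3.58.1, other scalings, filters and litter treatments, and libraries left out. The test was tested on simulated data, where it recovered 34% of 97 genes changed 2-fold and 78.4% of 97 changed 4-fold. It also called 8 genes that had not been changed. The simulated libraries were independent, without litters, and had the same dispersion in both genotypes, unlike the real ones. These rates may therefore not hold for the real data. Replicate numbers were not treated as pairs, as no litter was shared between the genotypes. The p-values measure the spread between fetuses, some of them littermates. Intervals on counts cover counting error only.

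The members and lists were chosen with earlier results of these data known. From each other pathway list the text names the called genes or, where there were none, the gene with the highest RPKM. Cdkn2a, Fbxo4 and Fbxo31 were named outside this rule. Symbols and promoter sequences come from RefSeq GRCm38.p6 and exons from GENCODE vM21.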

Additional observations from a re-analysis of the deposited data

How the results depend on the processing

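Over 24 alternatives, 213 of 240 fits of the 10 members kept their direction and their side of the threshold. This tally includes members that were not called and stayed so. Of the 2 called members, Ccnd2 lost its call in 4 of the 24 alternatives and Cdk6 in 8. The count over all genes, 1066, moved to 673 with scaling by total counts alone, 2197 with DESeq2, 2307 with limma-voom and sample weights, 422 with litter as a random block, 193 with littermates summed, 2299 without the 2 deleted libraries with most Kat7 reads and 2046 without the 2 farthest from the intact ones on the first component, an alternative chosen after seeing the data. The split of calls was 309 higher and 364 lower with total counts alone, against 688 and 378, as that scaling moved the median over all genes (log2) to -0.09 from 0.05. With 1 library left out it ran from 189 to 2182, the lowest without intact replicate 4 and the highest without deleted replicate 2, and without intact replicates 1 to 3 it was 250, 192 and 261. It was 1721 without deleted replicate 1.

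The count of members called, 2, was 4 with sample weights, 1 with litter as a random block and 0 with littermates summed, where 3 had an unadjusted p under 0.05. With 1 library left out it ran from 0 to 4. It was 0 without intact replicate 2, 3 or 4, with 3 to 5 members at an unadjusted p under 0.05, 1 without intact replicate 1, and 4 without deleted replicate 2. The cause was not tested.

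With the replicate number as a block (replicate block) 319 genes and 1 member were called. No litter was shared between the genotypes, so the numbers were not treated as pairs. Deviations from the genotype means correlated at 0.0961, 0.221, 0.110 and 0.331 within numbers 1 to 4. Deleted replicates 2 and 4 correlated best with the intact replicate of the same number. Deleted replicate 1 correlated best with intact replicate 3 (0.251), and deleted replicate 3 with intact replicate 1 (0.163). Between different numbers the values ran from -0.27 to 0.251. These correlations do not settle whether the numbers pair the samples.

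Fitted signs turned for 4 members that were not called. Ccnd3 was at 0.0040 without the 2 deleted libraries farthest on the first component, and Ccne1 at 0.0086 without the 2 with the highest mitochondrial share. Cdk2 was at -0.053 with total counts alone, -0.070 without deleted replicate 2 (0.19 without deleted replicate 1, the highest) and -0.053 without the 2 farthest libraries. Rb1 was at -0.12 without deleted replicate 1 and, as the highest with 1 library left out, 0.45 without deleted replicate 2, at -0.17 without the 2 with most Kat7 reads and -0.35 without the 2 with the highest mitochondrial share. Cdk6 is limited by depth, with 6 to 31 reads in deleted libraries.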

Other observations

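Several of the 10 genes share exon sequence with a gene on the opposite strand in GENCODE vM21, and without a stated strand setting the reads of the shared stretch cannot be assigned. The overlap was 372 and 368 bases of 9409 exonic bases for Ccnd2 (Gm43126 and 9330179D12Rik), 368 of 13989 for Cdk6 (Gm17590), 1100 of 4709 for Ccnd1 (LTO1), 641 of 3249 for Cdk4 (Tspan31), 609 of 3495 for Ccne2 (Ints8), 361 of 8775 for Ccnd3 (Bysl), 34 of 6219 for Cdk2 (Pmel) and 488 and 408 of 6015 for Rb1 (Rcbtb2 and Lpar6). Ccne1 and Rbl1 had none. For Ccnd2, the partner 9330179D12Rik held 42, 4, 15 and 30 reads in Kat7 deleted replicates 1 to 4, against 5, 15, 11 and 31 reads in Kat7 intact replicates 1 to 4, while Ccnd2 held 2217 to 5165 and 7411 to 15868 reads. No member shared a 100-base word with a transcript of any gene other than these partners.

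Reads of the genes that overlap Rb1 were most numerous in deleted replicate 2, where Rb1 had its lowest level. Lpar6, a receptor gene inside Rb1, held 1177 reads in deleted replicate 2 and 329 to 428 in the other deleted libraries, against 429 to 667 reads in intact libraries, and Rcbtb2 held 1939 in deleted replicate 2 and 788 to 1065 in the other deleted libraries, against 747 to 1169. Rb1 itself held 340 reads in deleted replicate 2. By edgeR the log2 fold change was 0.62 ± 0.49 for Lpar6 (adjusted p = 0.462) and 0.75 ± 0.36 for Rcbtb2 (adjusted p = 0.217). These genes were chosen for their position, after the values of Rb1 were seen.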
